A study of Homo sapiens with 6 samples.

Results

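The respiratory chain genes described here encode most of the structural subunits of complexes I to IV and of the ATP synthase. They were matched by gene symbol and comprised 87 of the 62492 genes listed, of which 74 are encoded in the nucleus and 13 in the mitochondrial DNA (mtDNA). The cells were HCT116, a line from a human colorectal carcinoma, in which NONO, a paraspeckle protein that binds RNA and DNA, was knocked down. Libraries were made from polyA RNA with a stranded mRNA kit from 3 siControl and 3 siNONO samples, and each of Sets 1, 2 and 3 holds 1 library of either kind. The siControl cells, labelled WT, and the siNONO cells, labelled NONO knockdown, had both received siRNA at 20 nM with lipofectamine RNAiMAX and were grown in the same medium. With a single siNONO reagent, loss of NONO and any other effect of that siRNA cannot be told apart, and the time of harvest is not given in the sources used here.

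Complexes I and II pass electrons from NADH and succinate to ubiquinone, complex III passes them on to cytochrome c, and complex IV passes them to oxygen. Complexes I, III and IV pump protons across the inner mitochondrial membrane, and the ATP synthase uses the resulting gradient to make ATP. Complex II alone is built wholly from nuclear genes, whereas the other complexes combine nuclear subunits with subunits encoded in mtDNA, a small circular genome transcribed as long precursors that are then cut into single RNAs. The comparison of siNONO with siControl asked whether the nuclear and the mtDNA-encoded parts of the chain changed alike when NONO was reduced.

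The estimated counts per library summed to between 21765393 and 32659002. NONO itself, which spans 70474664 to 70521372 of chromosome X (GRCh37, plus strand), fell to 18.9% of its siControl level. A value in CPM is a gene's count scaled to the TMM-adjusted total of its library, and a log2 fold change is siNONO minus siControl from edgeR's quasi-likelihood test with the Set as a block. A gene was called when its p, adjusted by the method of Benjamini and Hochberg over 17000 genes, was at most 0.05. Set 3 stood apart: replicate libraries of Sets 1 and 2 differed by 2.81 and 3.01 times the sampling variance, and pairs that included a Set 3 library by 5.25 to 9.93 times. Of 8 epithelial markers 1 was below 1 TPM in every library, and the list summed to 2957 to 3103 TPM in siControl and 2880 to 3203 TPM in siNONO. All 4 leukocyte markers were below 1 TPM, both endothelial markers found summed to at most 0.34 TPM, and 4 fibroblast markers summed to 16.5 to 19.2 TPM in siControl and 16.2 to 18.4 TPM in siNONO. In bulk RNA, fewer cells of a kind and less RNA per cell cannot be told apart, and a change in a transcript's amount cannot be told from a change in its poly(A) tail.

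The respiratory chain genes were more often higher than lower in siNONO, by small amounts. All 87 had enough counts for the test, with at least 400 in every library. In siNONO, 46 were higher and 5 lower, against 23.2% of all genes tested that were higher and 23.4% that were lower. All 13 mtDNA genes were higher, with a median log2 fold change of 0.29. Of the 74 nuclear genes, 33 were higher, 5 were lower and 36 were not called, with a median of 0.11. The median over all 17000 genes was -0.00. Set by Set, the median of the nuclear genes was 0.08, 0.09 and 0.13 and that of the mtDNA genes was 0.26, 0.34 and 0.17. Of the nuclear genes, 37 had every siNONO library above every siControl library, a pattern that 23.9% of all genes showed, and 3 had every siNONO library below, against 24.0% of all genes.

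Changes beyond 0.5 on the log2 scale were few. MT-ND2, MT-ND3 and SDHD were the 3 members called with at least that change, against 12.1% of all genes tested. The number of calls moved with the way the data were treated. Without the Set as a block, 31 members (35.6%) were higher and 2 (2.30%) lower, against 18.2% and 18.0% of all genes. The share called in either direction was then 37.9% for the members, 31.1% for the nuclear genes alone and 36.3% for all genes. With DESeq2, 33 members were higher and 2 lower, against 15.4% of all genes in either direction taken alone. On log2(TPM + 1), values are divided by the length of the transcripts that RSEM assigned and carry no TMM scaling. There, 18 members (20.7%) were higher and 7 (8.05%) lower, against 9.66% and 21.3% of all genes. In either direction, 28.7% of members and 30.9% of all genes were called. With a pseudocount of 0.1 in place of 1, 19 were higher and 7 lower, against 9.64% and 21.2% of all genes. The nuclear split was 12 higher (16.2%) and 7 lower (9.46%) on either TPM scale, so that 25.7% of nuclear genes were called. The median was 0.03 for the nuclear genes, and over all genes -0.07 with a pseudocount of 1 and -0.09 with 0.1. The core of complex I, the nuclear genes of complex III and those of complex IV each had 1 gene called higher. Effects of length and of scaling on these TPM results were not separated.

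The mtDNA genes were by far the more abundant transcripts. On the length-scaled TPM scale, the mean over the 6 libraries ran from 24.4 for NDUFV3 to 635 for ATP5F1B among nuclear genes, with a median of 169, and from 4881 for MT-ND5 to 41846 for MT-ATP8 among mtDNA genes, with a median of 15803. The 13 mtDNA genes took 7.92%, 8.21% and 7.90% of all counts in siControl Sets 1, 2 and 3, and 9.44%, 9.99% and 8.81% in siNONO. The groups did not overlap, and the mean rose from 8.01% ± 0.175 to 9.41% ± 0.594 (SD, n = 3 each), a ratio of 1.18. The 74 nuclear genes together took 0.669%, 0.675% and 0.677% of counts in siControl and 0.690%, 0.696% and 0.736% in siNONO. These groups did not overlap either, at a ratio of 1.05. By share of summed TPM, the mtDNA genes rose from 20.3%, 20.8% and 19.6% to 23.4%, 24.7% and 21.4%, whereas the nuclear genes had 1.54%, 1.54% and 1.55% in siControl and 1.55%, 1.53% and 1.63% in siNONO, which overlapped.

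Set against the nuclear genes, the mtDNA genes had 11.8, 12.2 and 11.7 counts per nuclear count in siControl and 13.7, 14.4 and 12.0 in siNONO. The siNONO library of Set 3 lay within the siControl range, so the groups overlapped. The log2 change of this ratio was 0.21, 0.24 and 0.04 in Sets 1, 2 and 3. Both genomes' shares of counts were higher in every siNONO library, while the excess of mtDNA over nuclear genes was smaller in Set 3 than in the other Sets. No p is given for these sums, since 3 libraries against 3 allow no exact two-sided p below 0.1.

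**Figure D1:**
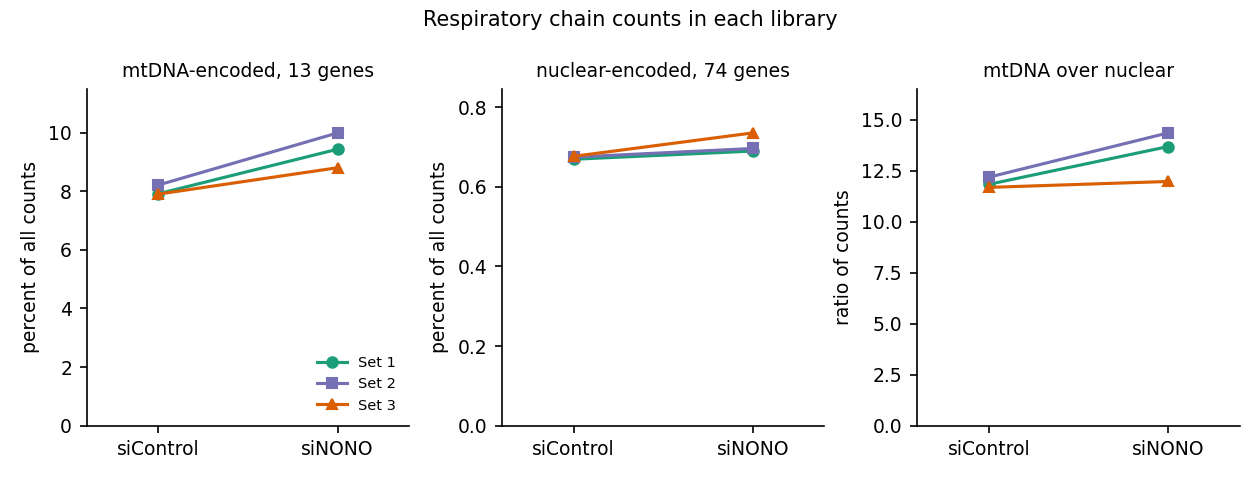
Percent of all counts taken by the mtDNA-encoded and by the nuclear-encoded respiratory chain genes in each library, and the ratio of these sums, with a point for each library and a line joining the siControl and siNONO libraries of a Set. The mtDNA share is 7.90% to 8.21% in siControl and 8.81% to 9.99% in siNONO, and the ratio overlaps between the groups through Set 3.

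The mtDNA encodes 7 core subunits of complex I, cytochrome b of complex III, the 3 core subunits of complex IV and 2 membrane subunits of the ATP synthase. Coordinates of these genes are those of chromosome M in GRCh37. Pairs of them share bases, which matters to the reading of their counts, since a read in the shared stretch fits both genes and RSEM divides it. MT-ATP8 and MT-ATP6 share 46 bases on the plus strand, from 8527 to 8572, and MT-ND4L and MT-ND4 share 7, from 10760 to 10766. Both stretches are printed 5′ to 3′ with 10 flanking bases on each side and the shared bases in capitals.
MT-ATP8 and MT-ATP6, chrM:8517-8582: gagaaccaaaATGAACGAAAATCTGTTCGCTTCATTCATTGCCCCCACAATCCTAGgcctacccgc
MT-ND4L and MT-ND4, chrM:10750-10776: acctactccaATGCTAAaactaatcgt

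The largest rises were those of complex I subunits. MT-ND2, from 4470 to 5511, had 4915, 5196 and 4837 CPM in siControl Sets 1, 2 and 3 and 7458, 8003 and 7110.5 CPM in siNONO. Every siNONO library was above every siControl library, with a log2 fold change of 0.59 (standard error 0.0249, adjusted p = 2.14e-09) and 0.60, 0.62 and 0.56 in the separate Sets. MT-ND3, from 10059 to 10404, had 1058, 1025 and 935 CPM in siControl and 1488, 1610 and 1426 CPM in siNONO. Again the groups were apart, with a log2 fold change of 0.58 (standard error 0.0322, adjusted p = 2.47e-08). MT-ND2 and MT-ND3 encode hydrophobic subunits of the membrane arm of complex I, and they lie apart on the mtDNA, with MT-CO1, MT-CO2, MT-ATP8, MT-ATP6 and MT-CO3 between them.

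The other complex I genes of mtDNA rose by less. MT-ND1, from 3307 to 4262, encodes the subunit at the base of the ubiquinone channel and had 2860, 2980 and 2862 CPM in siControl and 3602, 3856 and 3422 CPM in siNONO. Its groups were apart, with a log2 fold change of 0.32 (standard error 0.0279, adjusted p = 1.30e-06). MT-ND4, from 10760 to 12137, and MT-ND4L, from 10470 to 10766, are neighbours that leave the precursor as 1 RNA, and they rose alike, by 0.30 (adjusted p = 1.94e-06) and 0.29 (adjusted p = 2.91e-06) on the log2 scale. MT-ND4 had 12136, 12821 and 11687 CPM in siControl and 15241, 16279 and 13651 CPM in siNONO, with no overlap.

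MT-ND5 and MT-ND6 lie next to each other on opposite strands, and for them the groups overlapped. MT-ND5, an antiporter-like subunit encoded on the plus strand from 12337 to 14148, had 5199, 5722 and 5354 CPM in siControl and 6229, 6631 and 5428 CPM in siNONO. The siNONO library of Set 3 lay inside the siControl range, and the log2 fold change of 0.16 (adjusted p = 0.00335) was 0.26, 0.21 and 0.02 in the separate Sets. MT-ND6, the only one of the 13 on the minus strand, from 14149 to 14673, had 1112, 1195.5 and 1135 CPM in siControl and 1295, 1422 and 1087 CPM in siNONO. Its Set 3 siNONO library was the lowest of all 6, and the fitted log2 change was 0.14 (standard error 0.0479, adjusted p = 0.0330). That call was lost without the Set as a block (adjusted p = 0.168), under DESeq2 (adjusted p = 0.334) and without any 1 of the Set 1 or Set 2 libraries (adjusted p from 0.174 to 0.246), and without both libraries of Set 3 the log2 fold change was 0.24. The call of MT-ND5 was lost without siControl replicate 1 (adjusted p = 0.0804) or siNONO replicate 1 (adjusted p = 0.0770), and without Set 3 its log2 fold change was also 0.24. Whether RSEM was told the strand of the reads is not given in the sources used here, so reads of MT-ND6 and of RNA from the opposite strand cannot be told apart.

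MT-CYB encodes cytochrome b, the subunit that carries both hemes b of complex III, and had 4396, 4414 and 4434 CPM in siControl and 5513, 5683 and 4988 CPM in siNONO. This gene, from 14747 to 15887, had every siNONO library above siControl and a log2 fold change of 0.29 (standard error 0.0340, adjusted p = 1.90e-05).

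The 3 complex IV genes of mtDNA had a median log2 fold change of 0.19, below those of the other complexes' mtDNA genes. MT-CO1, from 5904 to 7445, encodes the subunit that holds the heme a3 and copper site where oxygen is reduced, and was the most counted of the 87 genes. It had 19417, 20258 and 20218 CPM in siControl and 21453, 22613 and 20595 CPM in siNONO. The lowest siNONO library, that of Set 3, was just above the highest siControl library, and the log2 fold change of 0.11 (standard error 0.0277, adjusted p = 0.00579) was the smallest of the 13. MT-CO2, from 7586 to 8269, which carries the copper centre that takes electrons from cytochrome c, had 7826, 8133 and 7360 CPM in siControl and 8693.5, 9586 and 8270 CPM in siNONO. MT-CO3, from 9207 to 9990, had 10063, 10638 and 10216 CPM in siControl and 12080, 13058 and 11299 CPM in siNONO. Both were higher in every siNONO library, by 0.19 (adjusted p = 6.59e-05) and 0.23 (adjusted p = 2.99e-05) on the log2 scale. On log2(TPM + 1) none of these 3 was called, and the change of MT-CO1 was 0.02 (adjusted p = 0.826). The call of MT-CO1 was also lost without siControl replicate 1, siNONO replicate 1 or siNONO replicate 2 (adjusted p of 0.179, 0.156 and 0.0795).

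The ATP synthase genes of mtDNA were read from overlapping RNA. MT-ATP6, from 8527 to 9207, encodes the subunit that forms the proton path beside the c-ring and had 7416, 7967 and 7388 CPM in siControl and 9282, 10110 and 8441 CPM in siNONO. Its groups were apart, with a log2 fold change of 0.29 (standard error 0.0301, adjusted p = 6.64e-06), and its call was lost on log2(TPM + 1) (0.21, adjusted p = 0.0584). MT-ATP8, from 8366 to 8572, had 796, 820 and 772 CPM in siControl and 865, 1043 and 818 CPM in siNONO. Set 3 of siNONO lay within the siControl range for MT-ATP8, with a log2 fold change of 0.18 (standard error 0.0427, adjusted p = 0.00341). MT-ATP8 spans 207 bases, of which RSEM counted only 26.5 to 29.5 as effective length, so its TPM is uncertain. Its call was lost without the Set as a block (adjusted p = 0.0626) and without siNONO replicate 2 (adjusted p = 0.0620).

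**Figure D2:**
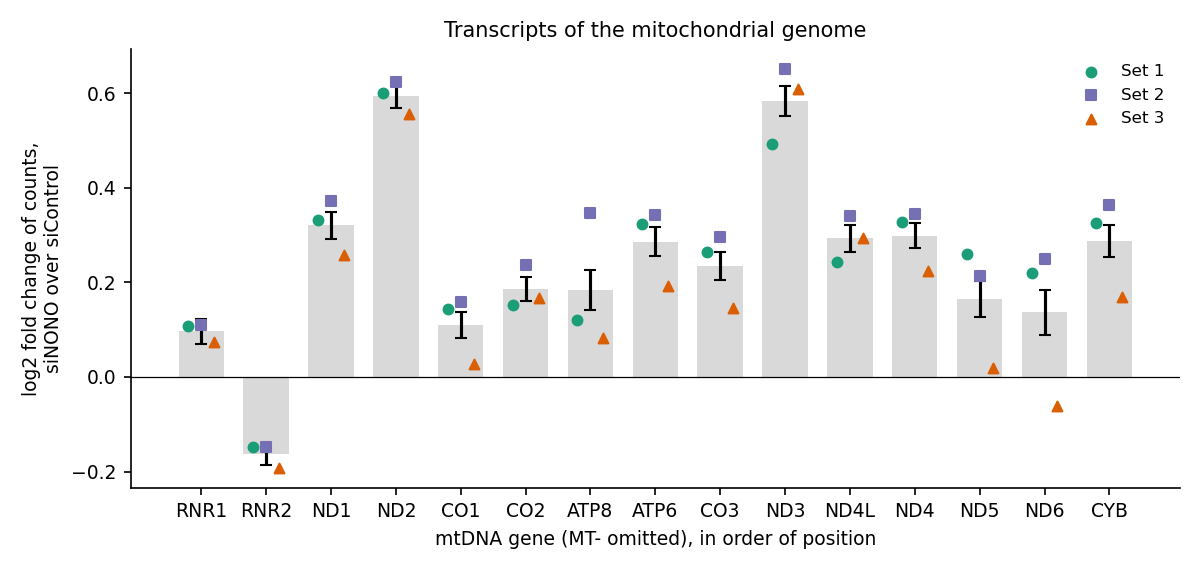
Log2 fold change, siNONO minus siControl, of the 13 mtDNA-encoded respiratory chain genes and both mitochondrial rRNAs in their order along the mtDNA, with bars for the fitted value, error bars for its standard error and points for the separate Sets. MT-ND2 and MT-ND3 stand near 0.6 in their fitted values, MT-CO1 is lowest at 0.11, and MT-ND6 is below 0 in Set 3.

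The order of levels among the mtDNA genes differed from the order of changes. In siControl, the length-scaled level was lowest for MT-ND5 (4747 ± 160 TPM), followed by MT-ND6 (5002 ± 141 TPM) and MT-ND1 (5421 ± 56.6 TPM). Those of MT-ATP6 (22323 ± 716 TPM) and MT-CO2 (22720 ± 1019 TPM), neighbours in this order, were within their SD of each other (n = 3 each). MT-ND2, which changed most, was in the lower part of the range at 8358 ± 212 TPM and reached 11888 ± 569.5 TPM in siNONO. MT-CO1, with the smallest change by counts, had 20996 ± 376 TPM in siControl and 21316 ± 775 TPM in siNONO, which differed by less than the SD of the siNONO libraries.

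The mitochondrial rRNAs, which are transcribed from the same strand ahead of MT-ND1, moved in opposite directions. MT-RNR2, the large rRNA, had 7928, 8270 and 7804 CPM in siControl and 7154, 7457.5 and 6831 CPM in siNONO. All siNONO libraries were below all siControl libraries, with a log2 fold change of -0.16 (standard error 0.0240, adjusted p = 1.16e-04). MT-RNR1, the small rRNA, was higher in siNONO, by 0.10 (standard error 0.0263, adjusted p = 0.00877), a call that was lost without the block (adjusted p = 0.0676) and without any 1 of the Set 1 or Set 2 libraries (adjusted p from 0.0566 to 0.123). The rRNAs carry short tails and are only in part captured in polyA RNA, so their counts measure what was captured.

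Nuclear copies of mtDNA can take reads from these genes. Pseudogenes named after MT-ATP6 held 11.3% to 11.6% of the counts of that family in siControl and 10.9% to 11.6% in siNONO, and those named after MT-ND2 held 2.40% to 2.56% and 2.25% to 2.36%. MTATP6P1 on chromosome 1 moved with its mtDNA counterpart, by 0.26 on the log2 scale (adjusted p = 2.15e-05), as did MTND2P28 by 0.51 (adjusted p = 6.78e-07). When the counts of each mtDNA gene were summed with those of its copies, all 13 remained higher, with a median of 0.28.

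Complex I had 36 nuclear members, of which 16 (44.4%) were higher, 1 (2.78%) was lower and 19 were not called. Over all genes tested, 23.2% were higher and 23.4% lower. The median log2 fold change of the 36 was 0.13. Among the 7 core subunits, which carry the flavin, the iron-sulfur clusters and the quinone site, 4 (57.1%) were higher and none lower. NDUFV1, which binds NADH and the flavin, had 85.1, 84.9 and 83.2 CPM in siControl and 98.6, 100.8 and 117.6 CPM in siNONO. The groups were apart, most widely in Set 3, with a log2 fold change of 0.32 (standard error 0.0497, adjusted p = 1.93e-04). On log2(TPM + 1) it was 0.16 and not called (adjusted p = 0.112). The iron-sulfur subunits NDUFS1 and NDUFS8 rose by 0.14 and 0.19. NDUFS3 had a log2 fold change of -0.01 (standard error 0.0498, adjusted p = 0.914) and NDUFV2 of 0.05 (standard error 0.0384, adjusted p = 0.311), with overlapping groups.

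Of the 29 accessory subunits of complex I, which surround the core and hold it together, 12 (41.4%) were higher and 1 (3.45%) lower. Over all genes tested, these shares were 23.2% and 23.4%. NDUFB11, in the membrane arm and encoded on the minus strand of chromosome X from 47001470 to 47004865 (GRCh37), rose most, from 32.5, 31.9 and 32.5 CPM in siControl to 42.5, 41.4 and 49.0 CPM in siNONO. Its groups were apart, with a log2 fold change of 0.45 (standard error 0.0543, adjusted p = 2.24e-05), the largest rise among the nuclear members. NDUFA3 and NDUFA13, both bound to the membrane arm near its joint with the peripheral arm, rose by 0.40 and 0.36, and NDUFS4 and NDUFS6, of the peripheral arm, by 0.33 and 0.29. NDUFB9 had the highest TPM of the accessory subunits, and its 149, 163 and 155 CPM in siControl compared with 176, 184 and 192 CPM in siNONO, without overlap (log2 fold change 0.24, adjusted p = 8.36e-05). NDUFA5 was the subunit that fell, with 61.9, 54.5 and 46.8 CPM in siControl and 55.4, 52.8 and 36.9 CPM in siNONO. The Sets differed more than the groups did, so the groups overlapped, and its log2 fold change of -0.17 (adjusted p = 0.0178) was -0.10 without both libraries of Set 3 (adjusted p = 0.0947).

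The 4 genes of complex II did not move together, and their values parted along its structure, the catalytic head of SDHA and SDHB and the membrane anchor of SDHC and SDHD. SDHD, on the plus strand of chromosome 11 from 111957548 to 111990739 (GRCh37), had 92.1, 91.4 and 84.5 CPM in siControl Sets 1, 2 and 3 and 52.9, 58.5 and 52.5 CPM in siNONO. Every siNONO library was far below every siControl library, the fitted log2 change was -0.71 (standard error 0.0414, adjusted p = 3.98e-08), and 61.1% of the siControl level was left. SDHC, its partner in the anchor, on the plus strand of chromosome 1 from 161284171 to 161332996, had 86.8, 88.2 and 88.6 CPM in siControl and 73.96, 71.8 and 79.3 CPM in siNONO. The groups were apart again, with a log2 fold change of -0.23 (standard error 0.0385, adjusted p = 3.26e-04).

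The head subunits showed no such fall. SDHB, the iron-sulfur protein, on the minus strand of chromosome 1 from 17345159 to 17380527, had 85.2, 87.8 and 88.0 CPM in siControl and 95.7, 97.9 and 99.6 CPM in siNONO. Every siNONO library was higher, with a log2 fold change of 0.17 (standard error 0.0340, adjusted p = 0.00134). SDHA, the flavoprotein, had 125.0, 132 and 128 CPM in siControl and 128, 129 and 135 CPM in siNONO, with overlapping groups (log2 fold change 0.03, standard error 0.0345, adjusted p = 0.577). SDHA, SDHC and SDHD have pseudogenes elsewhere in the genome, among which RSEM could divide reads. On log2(TPM + 1), SDHB was not called (0.08, adjusted p = 0.113), while SDHD was lower under every alternative run, from -0.77 to -0.66.

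**Figure D3:**
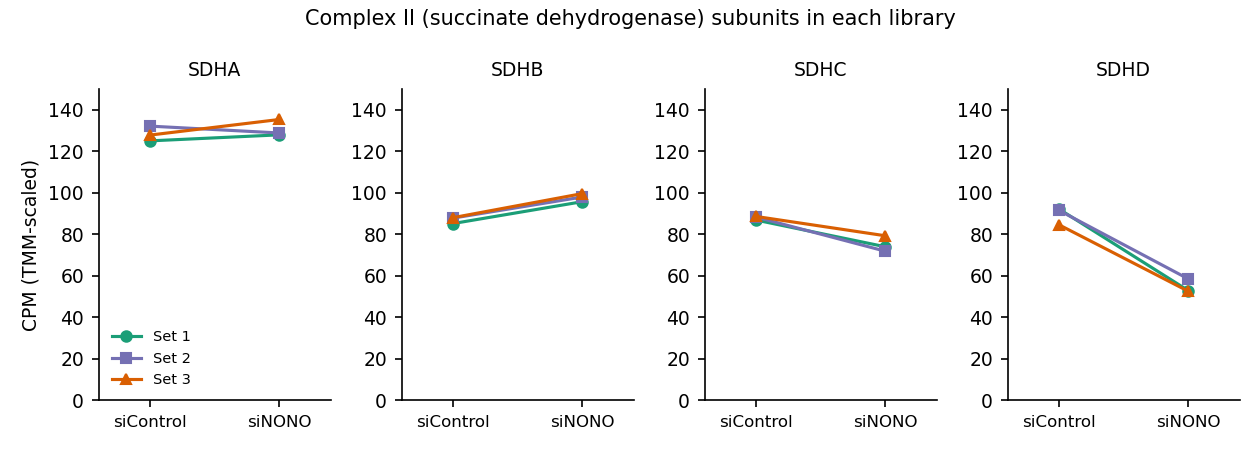
CPM of the 4 complex II genes in each library, with points for the 3 Sets of siControl and siNONO and lines joining libraries of a Set. SDHD falls from 84.5 to 92.1 CPM in siControl to 52.5 to 58.5 CPM in siNONO and SDHC falls less, whereas SDHB is higher and SDHA overlaps.

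Among the 8 nuclear genes of complex III, 5 (62.5%) were higher and 1 (12.5%) lower, beside 23.2% and 23.4% of all genes. Their median was 0.13. UQCRC2, a core protein that faces the matrix, had 157, 164 and 157 CPM in siControl and 194, 196 and 195.5 CPM in siNONO. The groups were well apart, with a log2 fold change of 0.29 (standard error 0.0310, adjusted p = 7.50e-06), close in size to that of the mtDNA gene MT-CYB of the same complex. UQCRH, the hinge protein near cytochrome c1, and UQCRQ, a small subunit beside cytochrome b, rose by 0.14 (adjusted p = 0.00408) and 0.24 (adjusted p = 9.71e-04). UQCRH had 0.06 on log2(TPM + 1) and was not called there (adjusted p = 0.174). UQCRFS1, the Rieske iron-sulfur protein, rose by 0.12 and UQCRC1 by 0.17. UQCR10, a small subunit, was the member called lower, with 28.2, 28.3 and 32.8 CPM in siControl and 25.4, 26.3 and 29.0 CPM in siNONO. Its groups overlapped, and the call (log2 fold change -0.14, adjusted p = 0.0368) was lost when any single library was left out (adjusted p from 0.0873 to 0.175).

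The 11 nuclear genes of complex IV held 4 (36.4%) that rose and 1 (9.09%) that fell, beside 23.2% and 23.4% of all genes. Their median was 0.08. COX5A, a matrix-facing subunit, had 68.6, 71.8 and 70.5 CPM in siControl and 80.2, 81.3 and 87.0 CPM in siNONO. Its groups were apart, with a log2 fold change of 0.23 (standard error 0.0385, adjusted p = 2.74e-04). COX4I1, a subunit through which ATP acts on the enzyme and the one with the highest TPM of the 11, rose by 0.10 (adjusted p = 0.0181). COX6C rose by 0.14 (adjusted p = 0.0216). COX7C rose by 0.11 (adjusted p = 0.0377), but its groups overlapped and its change in Set 2 was -0.0002. COX7A2 had 71.4, 70.2 and 73.6 CPM in siControl and 63.7, 65.9 and 70.2 CPM in siNONO. Its highest siNONO library was just below its lowest siControl library, and the log2 fold change was -0.11 (adjusted p = 0.0348). The calls of COX4I1 and COX7A2 were lost without the Set as a block (adjusted p = 0.109 and 0.167) and on log2(TPM + 1) (adjusted p = 0.536 and 0.157). That of COX4I1 was lost without siControl or siNONO replicate 2 (adjusted p = 0.0538 and 0.0797), and that of COX7A2 without any 1 of the Set 1 or Set 2 libraries (adjusted p from 0.112 to 0.310).

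The ATP synthase had 15 nuclear members, of which 7 (46.7%) were higher and none lower, with a median of 0.08. In the catalytic F1 head, 3 of 5 (60.0%) rose. ATP5F1D, a subunit of the central stalk, had 69.5, 65.4 and 66.6 CPM in siControl and 73.8, 78.7 and 91.7 CPM in siNONO. The groups were apart, with the highest value in Set 3 of siNONO and a log2 fold change of 0.27 (standard error 0.0569, adjusted p = 0.00186). That change was 0.18 without both libraries of Set 3 (adjusted p = 0.00931), and on log2(TPM + 1) it was not called (0.24, adjusted p = 0.0580). The subunits that build the ring of the head differed in their values, with 0.12 (adjusted p = 0.00888) for ATP5F1B, the catalytic beta subunit, and -0.04 (standard error 0.0315, adjusted p = 0.289) for ATP5F1A, the alpha subunit. ATP5F1A was called lower without both libraries of Set 3 (-0.08, adjusted p = 0.0164), and ATP5F1B was not called without the Set as a block (adjusted p = 0.0719) or on log2(TPM + 1) (0.02, adjusted p = 0.710). Among the 7 members of the peripheral stalk and membrane part, 2 (28.6%) rose, near the 23.2% of all genes. These were ATP5PD, by 0.11 (adjusted p = 0.0190), and ATP5PB, by 0.08 (adjusted p = 0.0443). The call of ATP5PD was lost without the block (adjusted p = 0.119) and without siControl replicate 1, siNONO replicate 1 or siNONO replicate 2 (adjusted p of 0.0552, 0.0632 and 0.0517). ATP5PF and ATP5MF had 0.07 (adjusted p = 0.188) and 0.10 (adjusted p = 0.0523).

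The c-ring of the ATP synthase, which turns as protons pass, is encoded by 3 nuclear genes whose mature proteins are identical and whose import sequences differ. ATP5MC1 had 57.8, 62.3 and 69.2 CPM in siControl and 70.0, 77.6 and 81.0 CPM in siNONO, a rise in every Set and without overlap (log2 fold change 0.27, adjusted p = 7.86e-05). ATP5MC3 had 146, 149 and 152 CPM in siControl and 164, 164 and 183 CPM in siNONO, also without overlap (0.19, adjusted p = 5.77e-04), though it was not called on log2(TPM + 1) (0.04, adjusted p = 0.505). ATP5MC2 had 107.8, 110.1 and 106.3 CPM in siControl and 93.3, 101.0 and 107.8 CPM in siNONO. Its groups overlapped through Set 3, and its log2 fold change of -0.11 was not called (standard error 0.0427, adjusted p = 0.0594). ATP5MC2 was called lower without both libraries of Set 3 (-0.16, adjusted p = 0.00306) and on log2(TPM + 1) (-0.18, adjusted p = 0.0450). Scaling by library size alone (adjusted p = 0.0339) or requiring 10 counts in every library (adjusted p = 0.0425) also gave that call. Without the block (adjusted p = 0.207) and under DESeq2 (adjusted p = 0.187) it was not called. The genes are paralogs of related sequence, so reads could be divided among them and their differences are uncertain to that extent.

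The genes that build and serve the chain were followed as fixed lists. Of 10 tested among 15 further subunits and cytochrome c, 3 (30.0%) were higher and 1 (10.0%) lower, beside 23.2% and 23.4% of all genes. Their median was 0.08. ATP5IF1, the inhibitor of the ATP synthase, rose by 0.26 (standard error 0.0394, adjusted p = 1.29e-04). COX7A2L, which links complexes III and IV into supercomplexes, had 61.4, 63.5 and 62.2 CPM in siControl and 49.5, 46.5 and 50.9 CPM in siNONO, without overlap (-0.35, adjusted p = 3.75e-05). Of 20 complex I assembly factors, 5 rose, a share near the 23.2% of all genes. Only 1 fell, a smaller share than the 23.4% of all genes, and the median was 0.06. NDUFAF1 rose most, by 0.41 (standard error 0.0667, adjusted p = 2.50e-04), and NUBPL, which delivers iron-sulfur clusters, had the lowest value at -0.17 (adjusted p = 0.0894), with a call only without siNONO replicate 3 (-0.22, adjusted p = 0.0493).

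Of 36 assembly factors of complexes II to V, 10 (27.8%) were higher and 6 (16.7%) lower, near the 23.2% and 23.4% of all genes, with a median of 0.01. LYRM7, which carries the Rieske protein to complex III, had 36.4, 34.6 and 29.7 CPM in siControl and 20.8, 20.8 and 15.5 CPM in siNONO. The groups were far apart, with a log2 fold change of -0.82 (standard error 0.0579, adjusted p = 1.91e-07), whereas 5 of the 8 nuclear genes of the complex it serves rose. COX14, an assembly factor for MT-CO1, rose by 0.52 (standard error 0.101, adjusted p = 0.00103). SDHAF2, needed to attach flavin to SDHA, fell by 0.29 on the log2 scale (adjusted p = 0.00130). It was singled out after its values were seen. SDHAF1, SDHAF3 and SDHAF4 of the same list had -0.02, -0.01 and -0.23 and were not called (adjusted p = 0.883, 0.952 and 0.332).

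Of 16 genes of mtDNA transcription and replication, 5 were higher and 5 lower, or 31.2% each way, beside 23.2% and 23.4% of all genes, with a median of -0.01. TFB2M, an mtDNA transcription factor, rose by 0.54 (standard error 0.0870, adjusted p = 2.22e-04), and MGME1, a nuclease of mtDNA replication, fell by 0.30 on the log2 scale (adjusted p = 4.96e-04). Of 21 genes of mitochondrial RNA processing and stability, 9 (42.9%) were higher and 3 (14.3%) lower, with a median of 0.07. PNPT1, the polynucleotide phosphorylase that degrades mitochondrial RNA and is also known as an interferon-induced gene, had 45.8, 47.6 and 44.5 CPM in siControl and 100.9, 98.2 and 99.2 CPM in siNONO. The groups were far apart, with a log2 fold change of 1.11 (standard error 0.0397, adjusted p = 4.72e-10). GRSF1, an RNA binding protein of mitochondrial RNA granules, fell by 0.48 on the log2 scale (adjusted p = 1.02e-07). LRPPRC and SLIRP, partners that stabilise mitochondrial mRNAs and were added with their values already known, rose by 0.18 (adjusted p = 2.07e-04) and 0.49 (adjusted p = 6.11e-06).

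**Figure D4:**
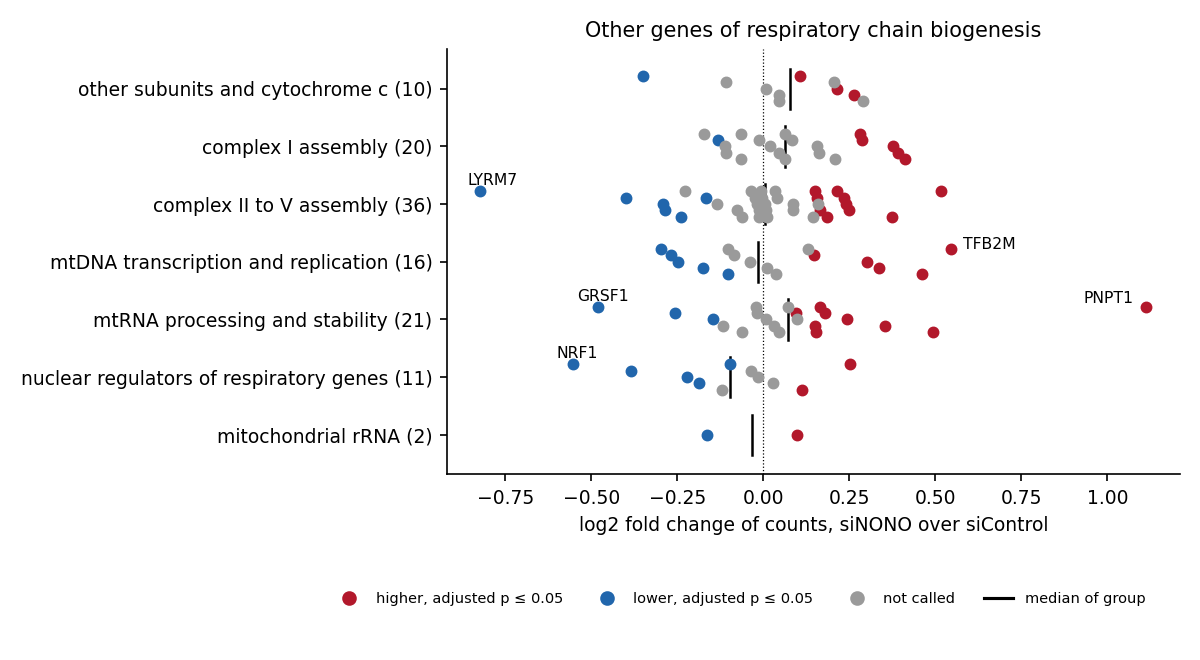
Log2 fold change, siNONO minus siControl, of genes outside the 87 that assemble the respiratory chain, act on mtDNA and its RNA or regulate respiratory genes, and of both mitochondrial rRNAs, by list, with called genes in colour and vertical lines at list medians. PNPT1 at 1.11 is the highest and LYRM7 at -0.82 the lowest of the genes named in the text, and the medians of the lists lie between -0.10 and 0.08.

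Of 11 nuclear regulators tested, 2 (18.18%) were higher and 5 (45.45%) lower, beside 23.2% and 23.4% of all genes, with a median of -0.10. NRF1, the factor whose sites are common in promoters of respiratory genes, had 25.2, 24.7 and 24.75 CPM in siControl and 16.6, 16.5 and 17.9 CPM in siNONO. The groups were apart, with a log2 fold change of -0.55 (standard error 0.0590, adjusted p = 7.62e-06). GABPB2, a subunit of the ETS family factor GABP, rose by 0.25 (standard error 0.0722, adjusted p = 0.0124), but had -0.03 on log2(TPM + 1) (adjusted p = 0.892). The call of GABPB2 was lost without siControl replicate 2 (adjusted p = 0.0748) or siNONO replicate 2 (adjusted p = 0.0910). The other GABP genes of the list, GABPA and GABPB1, were called lower, at -0.22 (adjusted p = 0.00219) and -0.19 (adjusted p = 0.0240). Both were added after their values were seen.

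Promoters of 61 of the 74 nuclear members were found in RefSeq (GRCh38.p14), as 250 bases before and 50 after the start. The NRF-1 core GCATGCGC, searched on both strands, was in those of 14 members, or 23.0%, against 3.68% of all 27305 genes with a promoter. The ETS core CCGGAAG, searched likewise, was in those of 20 members, or 32.8%, against 12.2%. The 27305 genes include ones that were not tested, whereas all members were tested. The median log2 fold change was 0.05 for the 14 members with the NRF-1 core, of which 3 were higher and 2 lower, and 0.11 for the 47 without, of which 23 were higher and 2 lower. Over all 710 tested genes with the NRF-1 core the median was -0.04. For the ETS core, the median was 0.08 for the 20 members with it, of which 7 were higher and 1 lower. It was 0.11 for the 41 members without, of which 19 were higher and 3 lower. Over all 2468 tested genes with the ETS core the median was -0.0013. Of all genes tested, 23.2% were higher and 23.4% lower. A match describes the letters only, and no binding was measured.

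The promoters of SDHD and SDHB are shown because both hold both motifs while their RNAs changed in opposite directions. They are printed 5′ to 3′ on the strand of the gene, plus for SDHD and minus for SDHB, with the motif matches in capitals. In SDHD the NRF-1 core matches on both strands at overlapping places, and the ETS core lies in reverse.
SDHD, chr11:112086623-112086922: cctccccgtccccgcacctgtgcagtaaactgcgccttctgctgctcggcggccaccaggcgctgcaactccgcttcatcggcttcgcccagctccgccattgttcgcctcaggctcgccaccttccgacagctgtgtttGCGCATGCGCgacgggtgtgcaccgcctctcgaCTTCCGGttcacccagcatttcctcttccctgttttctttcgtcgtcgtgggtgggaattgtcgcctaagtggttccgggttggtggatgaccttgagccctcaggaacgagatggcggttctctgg
SDHB, chr1:17053983-17054282: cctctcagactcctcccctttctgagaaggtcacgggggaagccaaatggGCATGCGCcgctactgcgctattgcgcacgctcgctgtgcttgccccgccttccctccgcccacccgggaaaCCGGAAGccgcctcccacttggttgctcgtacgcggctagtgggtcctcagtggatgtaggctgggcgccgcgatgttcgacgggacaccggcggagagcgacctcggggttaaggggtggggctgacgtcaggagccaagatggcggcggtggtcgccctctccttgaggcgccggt
Among the 61 members with a promoter, 6 held both motifs. These were SDHD at -0.71, COX6A1 at -0.07, COX5B and ATP5PF at 0.07, ATP5ME at 0.08 and SDHB at 0.17, of which SDHD and SDHB were the genes called.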

How the data were processed

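RNA-seq was analysed for 3 siControl and 3 siNONO libraries of HCT116 cells, grouped and numbered by the Set in their titles. The authors used sickle for trimming, STAR for alignment to GRCh37 with GENCODE version 34 transcripts, and RSEM (version 1.3.1) for counting. They deposited, per gene and library, estimated counts that are not normalized, TPM values scaled by RSEM for effective length and library size, FPKM values, which were not used here, and the length of the transcripts.

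Members were found by symbol, which 99.55% of the 62492 gene IDs had through GENCODE version 44, lifted by its makers to GRCh37, which is later than the annotation the authors used. The members and lists were chosen with earlier results of these data known. Counts, rounded to whole numbers, were scaled by TMM, filtered with filterByExpr and tested with edgeR (version 4.0.16, in its edgeR 3 form), with the Set as a block, as the study's methods take the batch as a covariate. P-values were adjusted by Benjamini-Hochberg over 17000 genes, and standard errors were derived from each log2 fold change and the F of its test. P-values measure the spread between these samples, labelled as biological replicates. Set numbers come from the labels, and deviations of same-Set libraries correlated at 0.427, 0.253 and 0.504 over 10840 genes, against -0.437 to 0.160 across Sets. On simulated counts, 86% of 100 genes changed by 0.5 and 98% of 100 changed by 1 on the log2 scale were recovered. Beside these recovered genes stood 20 false calls, with 16754 genes tested there. The simulation held no Set effect, no change below 0.5 and far fewer changed genes than were called in the data. It does not measure recovery of the smaller changes that most members showed. Depth was at least 21765393 counts per library.

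Genes named by rule were NONO, the mtDNA genes, in each nuclear group the highest and lowest log2 fold change and the highest TPM, members called with a change of at least 0.5, the c-ring genes, and the highest and lowest gene of each further list whose log2 CPM averaged at least 1. NDUFA3, NDUFA13, NDUFS1, NDUFS4, NDUFS6, NDUFS8, UQCRQ, UQCRFS1, UQCRC1, COX6C, COX7C, ATP5PB and members with both motifs were added for description after their values were seen. Alternatives were other scalings and filters, the edgeR 4 form, no block, DESeq2 (version 1.42.0), limma (version 3.58.1) on log2(TPM + 1) and log2(TPM + 0.1), sums with pseudogenes, and each library left out. Leaving out both libraries of Set 3 was added after the data were seen. Single genes were followed through the alternatives only if they were named by rule.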

Additional observations from a re-analysis of the deposited data

How the results depend on the processing

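The direction of the medians, 0.11 for nuclear and 0.29 for mtDNA genes, held under every alternative run. Without the Set as a replicate block, 33 of the 87 genes were called in place of 51 (37.9% against 36.3% of all genes). Of these, 23 were nuclear genes in place of 38, and 10 were mtDNA genes in place of 13. The nuclear share was then 31.1%, below that of all genes, with 28.4% higher and 2.70% lower against 18.2% and 18.0% of all genes. With DESeq2, 25 nuclear and 10 mtDNA genes were called (33.8% of the nuclear genes and 40.2% of the 87, against 30.7% of all genes). On log2(TPM + 1) these counts were 25 in all, 19 nuclear and 6 mtDNA, and on log2(TPM + 0.1) 26, 19 and 7. They were 28.7% and 29.9% of the 87, and 25.7% of the nuclear genes on either scale, against 30.9% of all genes. The nuclear median was 0.0277 and 0.0280. Of the named genes, 17 and 16 lost their calls on these scales without a change of sign. GABPB2 was the only called gene chosen by rule to change sign, to -0.0274 and -0.0319, and it too lost its call on log2(TPM + 1). ATP5PF and NDUFV2, which were not called, also changed sign there, to -0.02 and -0.03. Without both libraries of Set 3, a choice made after the data were seen, the nuclear median was 0.0779 with 40 genes called. These were 54.1% of the nuclear genes, against 43.7% of all genes. Leaving out each library in turn gave nuclear medians of 0.0747 to 0.119, with 30 to 40 nuclear calls and 10 to 13 mtDNA calls. The mtDNA calls were 10 without siControl replicate 1, siNONO replicate 1 or siNONO replicate 2. Without siNONO replicate 2, the 30 nuclear calls were 40.5% of nuclear genes, near the 37.8% of all genes. By direction, 36.5% were higher and 4.05% lower there, against 18.9% and 18.8% of all genes. Without siControl replicate 3, 54.1% of nuclear genes were called, against 43.1% of all genes. The log2 change of the mtDNA share was 0.23 over all counts and 0.16 over the nuclear members. The cause of these shifts was not tested. MT-ND6, MT-ND5, MT-ATP8, UQCR10, NDUFA5, COX7A2 and ATP5PD lost their calls under no block and under DESeq2, and ATP5F1B, COX4I1 and MT-RNR1 did so under no block and GABPB2 under DESeq2. Depth limits the smallest changes, with 400 counts for the lowest nuclear member.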

Other observations

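TIMM8B, which encodes a small chaperone of the mitochondrial intermembrane space, starts 26 bases from SDHD on the opposite strand, from 111955524 to 111957522 on chromosome 11 of GRCh37. It was singled out after its values were seen. By edgeR's quasi-likelihood test it had a log2 fold change of 0.15 (standard error 0.0674, adjusted p = 0.0872), beside -0.71 for SDHD.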
